A study of Mus musculus with 6 samples.

Results

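ABC transporters were represented on the arrays by 80 probes of 46 genes, of 25697 probes and 16593 named genes in all. These are the probes whose mouse symbol runs from Abca to Abcg followed by a number, apart from 1 gene that the choice of members leaves out. The symbol rule used no measured value, but the choice was made with earlier results of these data known. The cells were GIF-14, an immortalized line of fetal gastric epithelial cells with the genotype Runx3-/-;p53-/-, so both groups lack both genes. An epithelial fraction taken before epithelial-mesenchymal transition (EMT) was exposed to recombinant TGF-β1 at 2.5 ng/ml for 24 h in 3 samples and left untreated in 3 samples, which the methods call biological triplicates. All 6 samples come from 1 cell line, and p-values measure only the spread between these cultures. Levels were read on Illumina MouseRef-8 v2 bead arrays, which give 1 brightness value per probe and sample.

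ABC transporters bind and split ATP to move a substrate across a membrane, usually outward from the cytosol or into an organelle. The A and G subfamilies mostly carry sterols and phospholipids, the B and C subfamilies carry drugs, conjugates, bile salts and peptides, and the D subfamily serves peroxisomes and lysosomes. The E and F subfamilies keep the ATP-binding domains but have no membrane-spanning part, and act on ribosomes and translation instead. In gut, liver and stomach epithelium these proteins are known for clearing xenobiotics and for handling dietary sterols.

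Abcg5 and Abcg8, the lipid transporters with the largest differences here, lie head to head on chromosome 17 and share the DNA between their starts. That stretch is shown because both genes changed together, and the window of Abcf2, the member with the most probes that rose, is shown beside it. Both sequences are RefSeq windows of build GRCm38.p6, written 5′ to 3′ in lower case, with 2 kinds of motif in capitals: TTATCT, the reverse complement of the GATA factor motif AGATAA, and CACCTG, an E-box. The first, at chr17:84683012-84683120 on the plus strand, is the 109 bases between the Abcg5 start and the nearer of 2 listed Abcg8 starts. The second, at chr5:24577468-24577717 on the minus strand, is the 250 bases before 1 of 2 listed Abcf2 starts.
Abcg5-Abcg8: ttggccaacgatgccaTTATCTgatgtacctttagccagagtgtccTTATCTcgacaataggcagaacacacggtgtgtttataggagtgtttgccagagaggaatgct
Abcf2: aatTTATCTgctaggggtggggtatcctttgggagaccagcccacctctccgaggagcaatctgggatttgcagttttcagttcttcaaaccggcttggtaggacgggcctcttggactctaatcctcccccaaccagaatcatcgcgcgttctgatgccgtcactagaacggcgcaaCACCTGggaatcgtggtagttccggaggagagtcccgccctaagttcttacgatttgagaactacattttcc

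Because the listed further start of Abcg8 lies upstream, the stretch between the pair is also inside the annotated span of Abcg8. A promoter window of 300 bases, 250 before a start and 50 after it, was listed for 36 of the 46 member genes and for 8 of the 10 genes with a probe that passed the test. AGATAA or TTATCT occurred in windows of 6 member genes and in 11.2% of all 32851 windows of that length. Among the genes that passed, these were Abcg5, Abcg8 and Abcf2, and the Abcg5 window and the nearer Abcg8 window each held the same 3 matches because they overlap. This motif was chosen after the sequence had been seen. CAGGTG or CACCTG occurred in windows of 14 member genes, including Abca3, Abcf2, Abcg5 and Abcg8, against 20.2% of all windows. CAGAC or GTCTG, the core of Smad binding, occurred in windows of 14 member genes and in 49.6% of all windows. Its matches among the genes that passed were Abca3, Abcb1b, Abcd3 and Abcf1. TGACNNNGC, the antioxidant response element, occurred in windows of 4 member genes, including Abcc10, and in 12.4% of all windows. Each motif was searched on both strands, and a match describes the letters in the window, not a bound site. A member gene was counted if any of its windows matched, and the 36 genes had 42 windows. These gene counts and the shares of single windows are thus unlike units.

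The arrays carried the treatment and the labels as follows. Between 11381 and 11797 probes were detected per array, where detected means a detection p under 0.05 against negative control beads. Log2 signals correlated with r of 0.988 to 0.996 within a group and 0.967 to 0.976 between groups. The TGF-β targets Ccn2, Junb and Skil rose by 2.13, 1.71 and 0.47 on the log2 scale, and the Runx3 probe was detected on 0 arrays. Among 7 epithelial marker genes with a probe, 6 were detected on all 6 arrays. Krt19 (-1.59) and Cldn3 (-0.48) were lower and Krt18 (0.47) was higher. Cdh1 (-0.016), Krt8 (-0.081) and Cldn7 (-0.033) did not pass. Of 11 gastric markers 5 were tested, and Gkn1 and Gkn2 (at least 1.36-fold and 2.50-fold), Tff1 (-1.27) and Gata6 (-1.21) were lower. The summed signal was 31390 to 37350 in TGF-β1-treated cells against 39470 to 42960 in untreated cells for the epithelial list, and 2417 to 2896 against 5004 to 5658 for the gastric list. Such a sum weighs the brightest probes most. The part of these markers in the transporter values was not tested. Of 4 immune marker genes with a probe 0 were tested. Of 4 endothelial markers, Pecam1 alone was tested and was at least 1.08-fold lower. Of 4 hepatocyte markers 2 were tested, and 1 was lower. Of 6 fibroblast and smooth muscle markers, Col1a1 alone was tested and rose by at least 2.13-fold, and the summed signal of that list was 560.4 to 595 in TGF-β1-treated cells against 454 to 491 in untreated cells. The mean raw signal of the arrays was 406, 439 and 519 in TGF-β1-treated cells and 519, 518 and 435 in untreated cells.

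Detection divided the family before any comparison. For a test, detection in every sample of the TGF-β1 group, of the untreated group or of both was required. This left 33 member probes of 21 genes, while 47 probes did not and 25 genes had no tested probe. Of the 47, 42 were detected on 0 arrays. The A subfamily stood at 4 tested probes of 32, with 24 detected on 0 arrays, whereas all 8 probes of the F subfamily were tested and detected on all 6 arrays. The B subfamily had 10 tested probes of 13, the C subfamily 5 of 15, the D subfamily 3 of 5, the E subfamily its only probe and the G subfamily 2 of 6. Among the 33 tested probes, 25 were detected on all 6 arrays, 7 were tested only through the untreated group and 1, for Abce1, only through the TGF-β1 group.

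**Figure D1:**
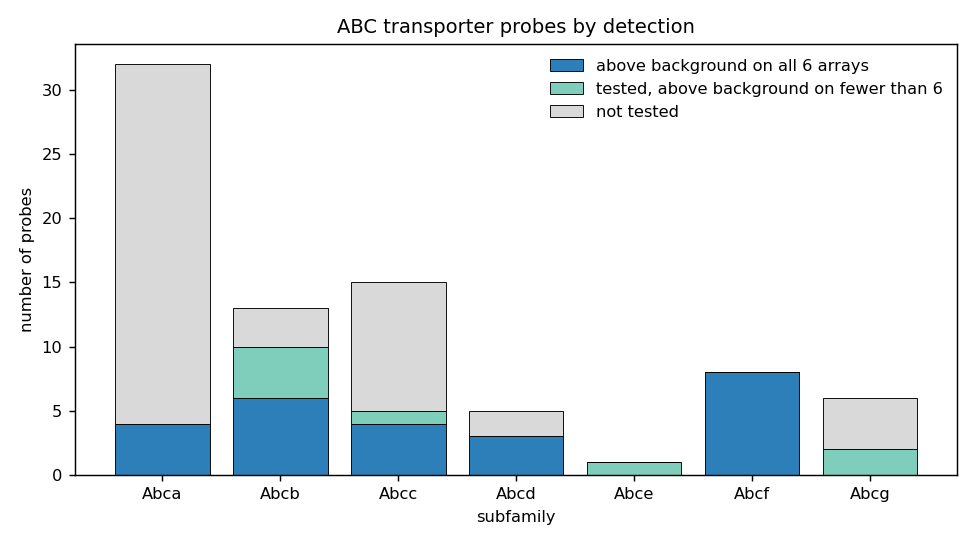
Number of ABC transporter probes per subfamily on the vertical axis, stacked by whether the probe was above background on all 6 arrays, tested but above background on fewer, or not tested. The F subfamily has 8 of 8 probes above background on all arrays, and the A subfamily has 4 of 32 tested.

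After TGF-β1, 12 of the 33 tested member probes (36.4%) passed an adjusted p of 0.05 in limma, against 32.3% of all 11189 tested probes. Of these 12, 8 were lower (24.2%, against 15.9% of all tested probes) and 4 were higher (12.1%, against 16.4%). The 8 lower probes belonged to 8 genes, Abcg5, Abcc3, Abcg8, Abcd3, Abcb1b, Abca3, Abcc10 and Abcc6. The 4 higher probes belonged to Abcf2, with 3 probes, and Abcf1, with 1. With a fold change of at least 1.5 required as well, 6 probes were lower and 2 higher, against 7.77% and 5.54% of all tested probes. Since 7 members were tested only because untreated cells gave a signal, the 25 probes detected on all 6 arrays were also read alone: 9 of them passed (36%, against 31.3% of all such probes). Of these, 5 were lower, against 14.7% of all such probes, and 4 higher, against 16.6%. The median log2 difference was -0.16 over the tested members and 0.04 over all tested probes, and 0.04 over members on all 6 arrays against 0.05 over all such probes. Among the 25 members detected on all 6 arrays the groups did not overlap for 11, against 44.8% of all such probes. Of these, 7 had all TGF-β1 arrays below, against 20% of all such probes, and 4 had them above, against 24.8%. In these RNA samples, fewer cells that express a gene and less RNA per cell cannot be told apart.

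**Figure D2:**
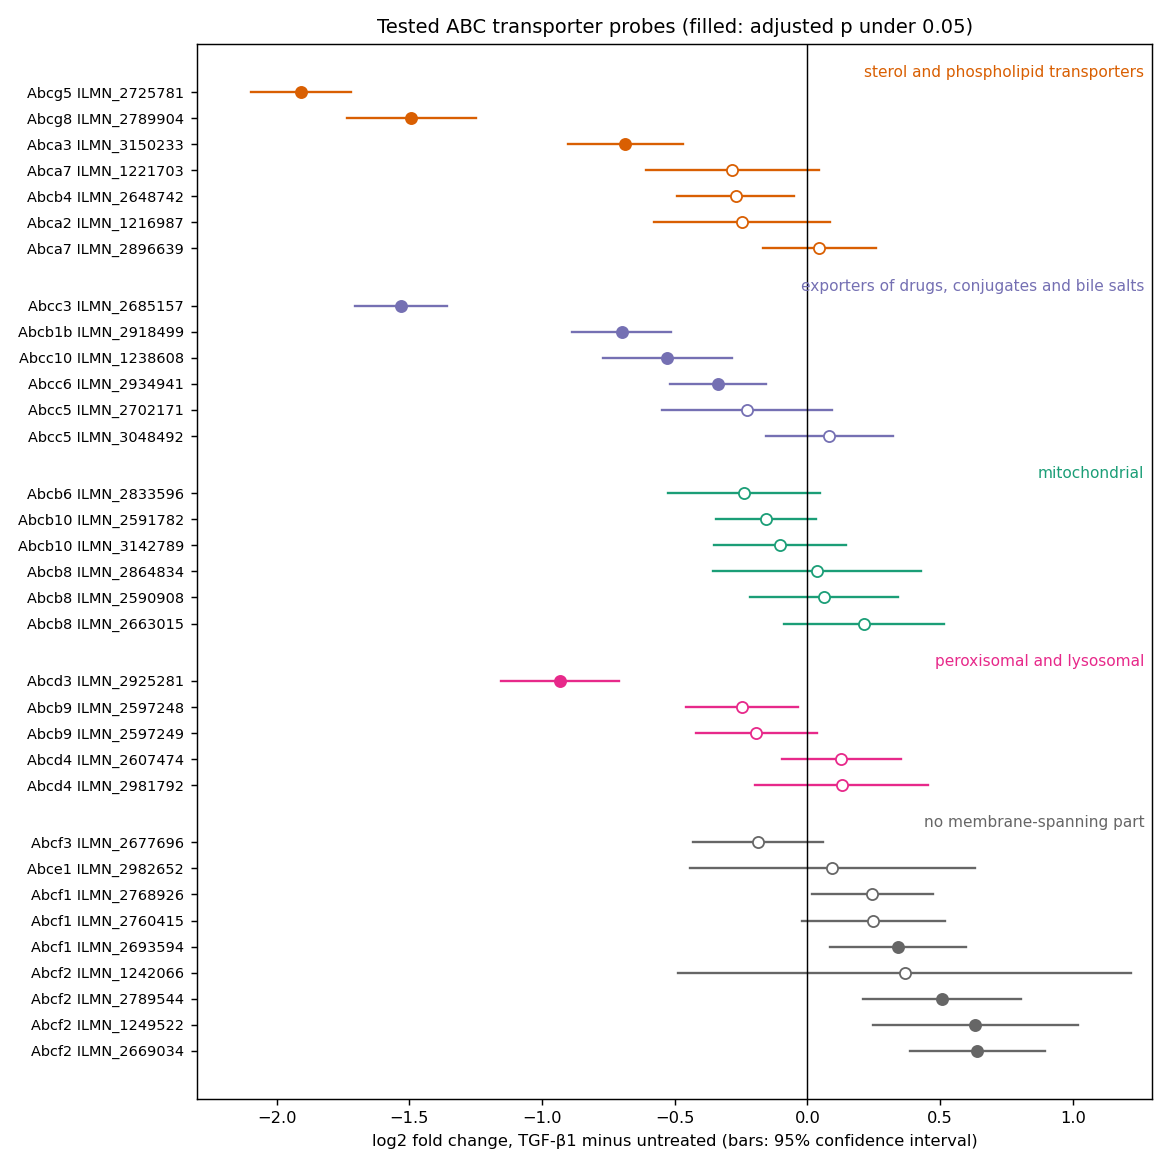
Log2 fold change, TGF-β1 minus untreated, for the 33 tested ABC transporter probes grouped by role, with 95% confidence intervals from limma as bars and filled points where the adjusted p was under 0.05. Filled points to the left belong to lipid transporters, exporters and Abcd3, and those to the right to Abcf1 and Abcf2.

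Sterol and phospholipid transporters gave 7 tested probes of 37, of which 3 were lower, 0 higher and 4 did not pass. Over all tested probes 15.9% were lower and 16.4% higher. Of the lower probes, those of Abcg5 and Abcg8 were tested only through the untreated group. Abcg5 and Abcg8 form 1 obligate pair that pumps cholesterol and plant sterols out of cells into bile and gut lumen, and both fell. The log2 signal of Abcg5 was 6.69, 6.55 and 6.56 on the TGF-β1 arrays and 8.52, 8.47 and 8.55 on the untreated arrays. All TGF-β1 values lay near background, with 1 of 3 detected, and all untreated values lay far above them. The signals differed by -1.91 ± 0.083 (SE) on the log2 scale, with a limma adjusted p of 1.52e-06, and since 2 of 3 treated arrays did not detect the probe no fold is given. Abcg8 stood at 6.26, 6.29 and 6.19 after TGF-β1, where 0 arrays detected it, and at 7.55, 7.74 and 7.91 in untreated cells. The limma adjusted p of 1.98e-05 thus sets untreated signal against background readings and is no separate support. The signal was at least 2.12-fold lower after TGF-β1. This bound sets the untreated mean against the lowest detected signal of each TGF-β1 array, or the probe's own value where that was higher. With background modelled and subtracted by neqc the log2 difference of Abcg5 was -3.06, so its size depends on how background is treated.

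Abca3, which loads phospholipid into the lamellar bodies of lung epithelium, was lower as well. Its signal was 10.00, 9.87 and 10.05 on the TGF-β1 arrays and 10.54, 10.75 and 10.68 on the untreated arrays, with no overlap. It differed by -0.69 ± 0.094 (SE), or 1.61-fold lower, with a limma adjusted p of 8.88e-04. A second Abca3 probe was detected on 0 TGF-β1 arrays and 2 untreated arrays and was not tested. The probes of Abca2, Abca7 and Abcb4 did not pass, and those of Abca2 and Abca7 had log2 differences between -0.28 and 0.04. Abcb4, which flips phosphatidylcholine toward bile in hepatocytes, was detected on 0 TGF-β1 arrays and 3 untreated arrays. It was thus tested only through the untreated group, and its signal was at least 1.09-fold lower (limma adjusted p of 0.0629). Its call turned with the setting, to adjusted p of 0.0280 with neqc and 0.0371 with an intensity trend and a robust prior. The adjusted p was 0.0492 over gene means and 0.0286 with array brightness in the fit. None of these fits had a detected TGF-β1 value of Abcb4 to compare. The brighter Abca7 probe, at -0.28 here, passed only with array brightness in the fit, at -0.42 with an adjusted p of 0.00226.

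Abca1 and Abcg1, the widely expressed cholesterol exporters that load apolipoprotein particles, were not detected. The Abca1 probe read 6.19, 6.23 and 6.22 on the TGF-β1 arrays and 6.30, 6.05 and 6.20 on the untreated arrays, with a lowest detection p of 0.353. The Abcg1 probe read 6.24, 6.26 and 6.37 after TGF-β1 and 6.16, 6.30 and 6.31 in untreated cells, with a lowest detection p of 0.239. At these signals no difference could be measured for either gene. The lower signals in this class were thus measured on Abcg5, Abcg8 and Abca3, and the other 30 probes of the class, among them those of Abca1 and Abcg1, were not tested.

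**Figure D3:**
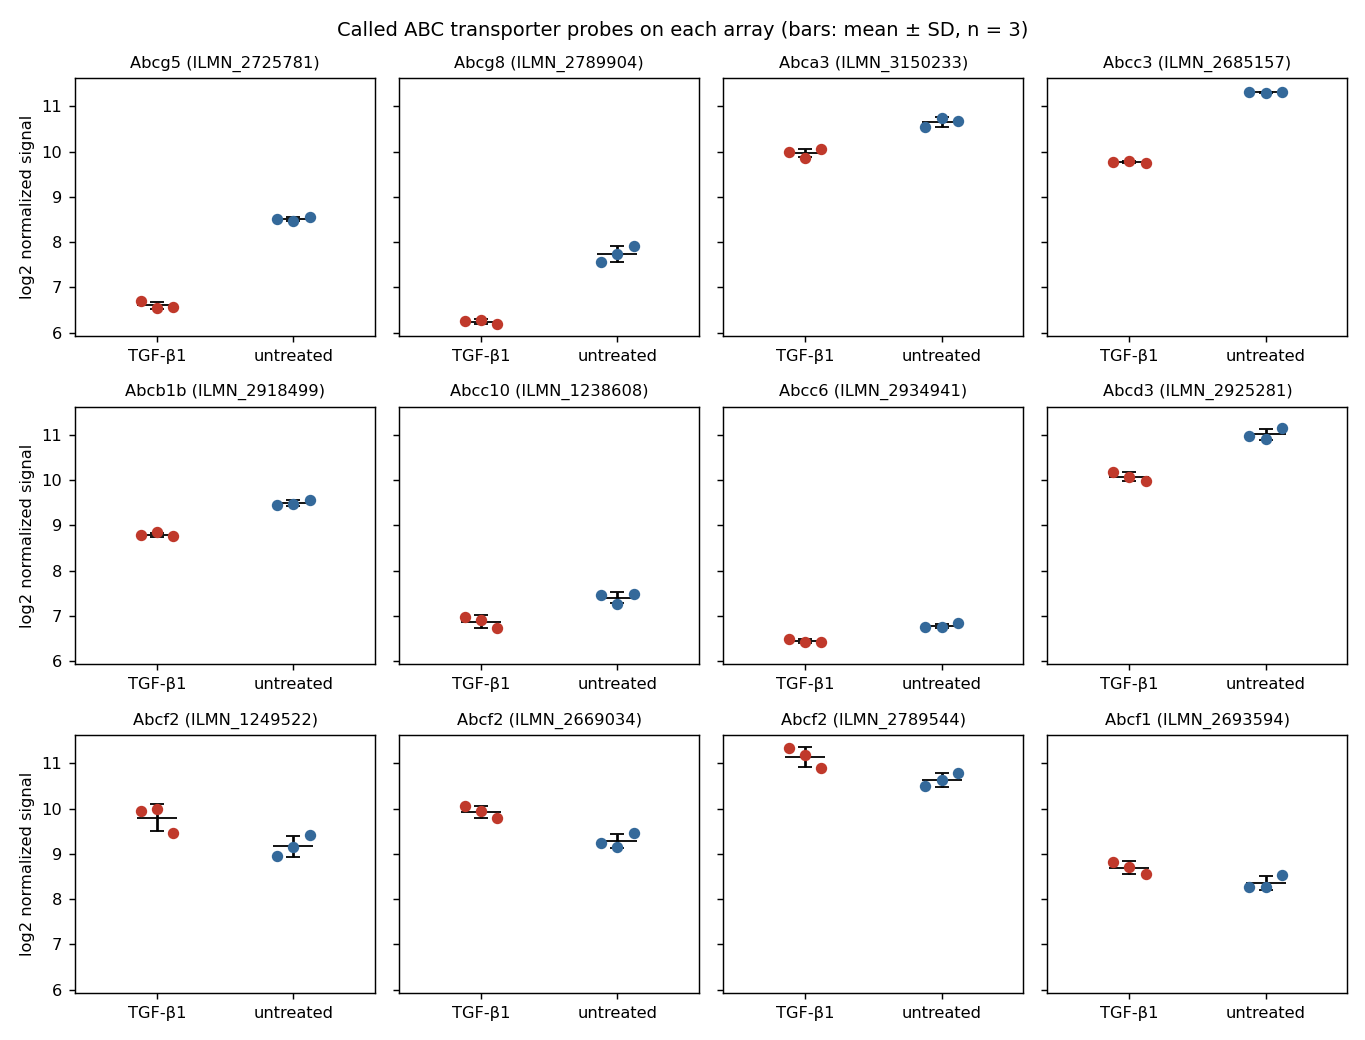
Log2 normalized signal (vertical axis) of the 12 ABC transporter probes that passed, 1 panel per probe, with TGF-β1 arrays in red at the left and untreated arrays in blue at the right, and mean and SD (n = 3) as bars. The groups are apart in every panel, with the widest gap for Abcg5 and the narrowest for the Abcf1 probe and Abcf2 probe ILMN_1249522.

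Exporters of drugs, conjugates and bile salts gave 6 tested probes of 16, of which 4 were lower, 0 higher and 2 did not pass. Of all tested probes 15.9% were lower and 16.4% higher. The lower Abcc6 probe was tested only through the untreated group. Abcc3, an exporter of glucuronides and bile salts on the basolateral side of epithelial cells, changed most. Its log2 signal was 9.78, 9.80 and 9.75 on the TGF-β1 arrays and 11.32, 11.29 and 11.31 on the untreated arrays. The arrays of each group were nearly equal, with SD of 0.025 after TGF-β1 and 0.015 in untreated cells, and the groups were far apart. The difference was -1.53 ± 0.076 (SE), or 2.89-fold lower, with a limma adjusted p of 2.78e-06.

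P-glycoprotein, the classical multidrug efflux pump, is encoded by 2 genes in mice, Abcb1a and Abcb1b. Abcb1b was detected on all 6 arrays, at 8.78, 8.84 and 8.75 after TGF-β1 and 9.44, 9.47 and 9.56 in untreated cells. These groups did not overlap, and the difference was -0.70 ± 0.081 (SE), or 1.62-fold lower, with a limma adjusted p of 3.45e-04. The Abcb1a probe was detected on 0 arrays, reading 6.23, 6.22 and 6.27 after TGF-β1 and 6.42, 6.13 and 6.25 in untreated cells. Abcb1a and Abcb1b are close paralogs, and how far their probes tell the transcripts apart was not tested.

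Abcc10 and Abcc6, further members of the multidrug resistance-associated C subfamily, passed with smaller differences. Abcc10 averaged 6.87 ± 0.14 after TGF-β1 and 7.40 ± 0.13 in untreated cells (SD, n = 3 each), a difference of -0.53 with a limma adjusted p of 0.00596. The further Abcc10 probes ILMN_2660048 and ILMN_2745985 were detected on 0 arrays and were not tested. Abcc6, whose human counterpart is mutated in pseudoxanthoma elasticum, averaged 6.44 ± 0.042 after TGF-β1, where no array detected it, and 6.78 ± 0.049 in untreated cells (SD, n = 3 each). Its bound was at least 1.09-fold lower. The limma adjusted p of 0.0122 sets its untreated signal against background readings. With neqc the log2 difference of Abcc10, a dim probe detected on all 6 arrays, became -0.96. Both Abcc5 probes, for an exporter of cyclic nucleotides and organic anions, did not pass, with -0.23 (95% interval -0.55 to 0.093) and 0.08 (-0.16 to 0.32). The dimmer probe of the 2 passed once array brightness was in the fit, at -0.35 with an adjusted p of 0.0117.

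Abcc1 and Abcg2, the other widely studied drug exporters, were not tested. Abcc1, which exports glutathione conjugates, read 6.50, 6.64 and 6.62 on the TGF-β1 arrays, with 0 detected, and 6.64, 6.60 and 6.72 on the untreated arrays, with 2 detected. Abcg2, known from breast cancer drug resistance and from side-population stem cells, read 6.13, 5.88 and 6.14 after TGF-β1 and 6.15, 5.93 and 5.92 in untreated cells. Its lowest detection p was 0.688, so no array placed it above the negative controls. The probes of Abcb11, the bile salt export pump, and of Abcc2, its neighbour on the canalicular membrane of hepatocytes, were likewise detected on 0 arrays.

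The mitochondrial members did not pass with any of their 6 probes, where 32.3% of all tested probes passed. Abcb10 serves haem synthesis in the inner membrane, Abcb6 is linked to porphyrin transport and Abcb8 to iron export. Their log2 differences ran between -0.24 and 0.21, with a median of -0.033. For the brightest Abcb8 probe the difference was 0.04 with a 95% interval of -0.35 to 0.43, and for the brightest Abcb10 probe it was -0.16 with an interval of -0.34 to 0.033. Abcb6 gave -0.24, with an interval of -0.53 to 0.047, and passed only with array brightness in the fit, at -0.35 with an adjusted p of 0.00555. Each limit of the 6 intervals lay within a 1.5-fold change in either direction, on signals without background subtraction. The dimmer Abcb10 probe, at -0.10, was detected on 2 TGF-β1 arrays and so tested only through the untreated group. With neqc it gave -0.23.

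The peroxisomal and lysosomal members gave 5 tested probes of 8, and 1 of them passed, where 32.3% of all tested probes passed. Abcd3 is the major ABC protein of the peroxisomal membrane and brings branched-chain acids and bile acid intermediates in for oxidation. It read 10.17, 10.07 and 9.99 on the TGF-β1 arrays and 10.98, 10.91 and 11.14 on the untreated arrays. The groups did not overlap, and the difference was -0.93 ± 0.097 (SE), or 1.91-fold lower, with a limma adjusted p of 1.75e-04. Abcd2, another peroxisomal member, was detected on 0 arrays with either of its 2 probes. Abcd4, which acts in the export of cobalamin from lysosomes, gave 0.13 with both of its probes, with 95% intervals of -0.094 to 0.35 and -0.20 to 0.46. Abcb9, a lysosomal peptide transporter, had 2 tested probes, both tested only through the untreated group, and neither passed. ILMN_2597248 was detected on 1 TGF-β1 array and gave -0.25, with a limma adjusted p of 0.0747. ILMN_2597249 was detected on 0 TGF-β1 arrays, and its bound was at least 1.04-fold lower, with a limma adjusted p of 0.179. ILMN_2597248 passed with neqc (adjusted p of 0.0328) and with array brightness in the fit (0.0467), again with only 1 TGF-β1 array detected.

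The 9 probes of members with no membrane-spanning part were all tested, and 4 were higher, 0 lower and 5 did not pass. Among all tested probes 16.4% were higher and 15.9% lower. Abcf2 had 4 probes. Probe ILMN_2669034 read 10.05, 9.95 and 9.79 after TGF-β1 and 9.25, 9.16 and 9.46 in untreated cells, without overlap. It was 0.64 ± 0.11 (SE) higher on the log2 scale, or 1.56-fold, with a limma adjusted p of 0.00292. Probe ILMN_1249522 read 9.96, 9.99 and 9.46 after TGF-β1 and 8.95, 9.14 and 9.41 in untreated cells, so its nearest arrays almost touched. Its difference was 0.63 ± 0.17 (SE), or 1.55-fold, with a limma adjusted p of 0.0214. Probe ILMN_2789544, the brightest of the 4, differed by 0.51 ± 0.13 (SE) with a limma adjusted p of 0.0180.

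The fourth Abcf2 probe, ILMN_1242066, behaved differently among the arrays. It read 9.40, 9.94 and 10.47 after TGF-β1 and 10.04, 9.94 and 8.73 in untreated cells, so the groups overlapped widely. Its difference was 0.37 with a 95% interval of -0.49 to 1.22 and a limma adjusted p of 0.497. Within each group its values followed the mean raw signal of the arrays given above, high on the bright arrays and low on the dim ones, while the other 3 probes were lowest on the brightest TGF-β1 array and highest on the dimmest untreated array. With array brightness in the fit, the 4 probes gave differences of 0.79 for ILMN_1242066, 0.54 for ILMN_2669034, 0.46 for ILMN_1249522 and 0.38 for ILMN_2789544, and all 4 passed, with adjusted p of 3.19e-04, 1.82e-04, 0.00173 and 0.00254 in that order. Why brightness differed between arrays was not tested.

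The rise of Abcf2 rested most firmly on ILMN_2669034, which passed in every setting that tested it. ILMN_1249522 and ILMN_2789544 each lost the call when 1 of 4 arrays was left out. Without TGF-β1 replicate 1 their adjusted p was 0.0682 and 0.0580 in that order, and without TGF-β1 replicate 2 it was 0.0896 and 0.0686. Without untreated replicate 1 it was 0.0756 and 0.0673, and without untreated replicate 2 it was 0.0679 and 0.0583. Both probes also lost the call with the replicate number as a block, and ILMN_2789544 lost it with a 1.5-fold minimum.

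Abcf1, which binds initiation factor eIF2 and ribosomes, passed with 1 of 3 probes. Probe ILMN_2693594 averaged 8.70 ± 0.14 after TGF-β1 and 8.36 ± 0.15 in untreated cells (SD, n = 3 each), a difference of 0.34 with a limma adjusted p of 0.0483. The other 2 probes differed by 0.25 and 0.24 with adjusted p of 0.147 and 0.0955, and the second of them passed without untreated replicate 3 (0.0351). The call of ILMN_2693594 was lost in 10 of 16 settings, among them leaving out TGF-β1 replicate 1 (0.147), TGF-β1 replicate 2 (0.128), untreated replicate 1 (0.151) or untreated replicate 2 (0.157). Abce1, which splits ribosomes for recycling, gave 0.09 with a wide interval of -0.44 to 0.63, and Abcf3 gave -0.19 with an interval of -0.43 to 0.060. Abce1 followed array brightness as ILMN_1242066 did, at 6.79, 7.30 and 7.49 after TGF-β1 and 7.42, 7.25 and 6.63 in untreated cells, and passed with brightness in the fit, at 0.34 with an adjusted p of 0.0259.

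The channel regulators Abcc8 and Abcc9, which are the sulfonylurea receptor subunits of ATP-sensitive potassium channels, had 4 probes and 0 were tested. Their channel partner Kcnj8 was untested as well. Of the other ABC genes and partners, Tap1, Tap2 and Cftr were untested, and Tapbp, which bridges peptide-loading complexes, gave 0.08 with a limma adjusted p of 0.529.

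Genes that work around these transporters were read from lists chosen with earlier results of these data known, taking the brightest tested probe of a gene. By that rule 17.8% of all tested genes were lower and 16.4% higher. Among 7 tested sterol and liver X receptor (LXR) genes, 3 were lower and 0 higher, with a list median of -0.25 against 0.04 over all tested probes. Srebf1, a transcription factor of lipid synthesis, differed by -0.71, the phospholipid acyltransferase Lpcat3 by -0.48, and Nr1h3 by -0.45. Nr1h3 is the LXRα receptor that drives Abcg5 and Abcg8 in liver and gut. The probe of Nr1h3 used, 1 of 2, was detected on 2 TGF-β1 arrays and 3 untreated arrays, so it was tested only through the untreated group. The part of Nr1h3 in the values of Abcg5 and Abcg8 was not tested. Among 7 tested nuclear and xenobiotic sensors, 4 were lower and 0 higher, with a median of -0.42. The lipid receptor Pparg differed by -1.87, at 10.40, 10.49 and 10.14 after TGF-β1 and 12.16, 12.12 and 12.35 in untreated cells. The bile acid receptor Nr1h4 was at least 2.30-fold lower. Tested only through the untreated group, it was not above background after TGF-β1. The pregnane receptor Nr1i2 differed by -0.93.

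Glutathione synthesis and conjugation supplies substrates for C subfamily exporters. Of its 7 tested genes, 4 were lower and 1 higher, against 17.8% and 16.4% of all tested genes, with a median of -1.04. The transferases Mgst1, Mgst3 and Gstm1 differed by -1.62, -1.24 and -1.14. Gclm, the modifier subunit of glutathione synthesis, was the 1 that rose, by 0.54, and is named after its value was seen. In the list around the mitochondrial members, 1 of 12 tested haem and iron-sulfur genes was higher and 3 were lower, with a median of -0.038. Hmox1, which breaks haem down, differed by 0.83, and Alad and Iscu, which act in haem and iron-sulfur cluster synthesis, by -0.56 and -0.51.

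For the peroxisome, 2 of 9 tested genes of peroxisomal entry and fatty acid oxidation were lower and 0 higher, with a median of -0.14. These were Pex11a, which acts in peroxisome division, at -0.60, and the thiolase Acaa1a at -0.37, set beside -0.93 for Abcd3. Of 2 tested cobalamin genes around Abcd4, Cd320, the receptor for transcobalamin-bound cobalamin, was higher by 0.70. Of 9 tested ribosome recycling and translation partners, 3 were higher and 0 lower, with a median of 0.22. They were the ribosome rescue factor Pelo at 0.51, the eIF2 subunit Eif2s2 at 0.35 and the release factor Gspt1 at 0.27. The 8 lists, in the order planned, held 1, 7, 7, 7, 12, 9, 9 and 2 tested genes. Of these, 22 genes passed, 6 higher and 16 lower. The brightest probes of all tested genes passed in 34.2% of cases, 16.4% higher and 17.8% lower.

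**Figure D4:**
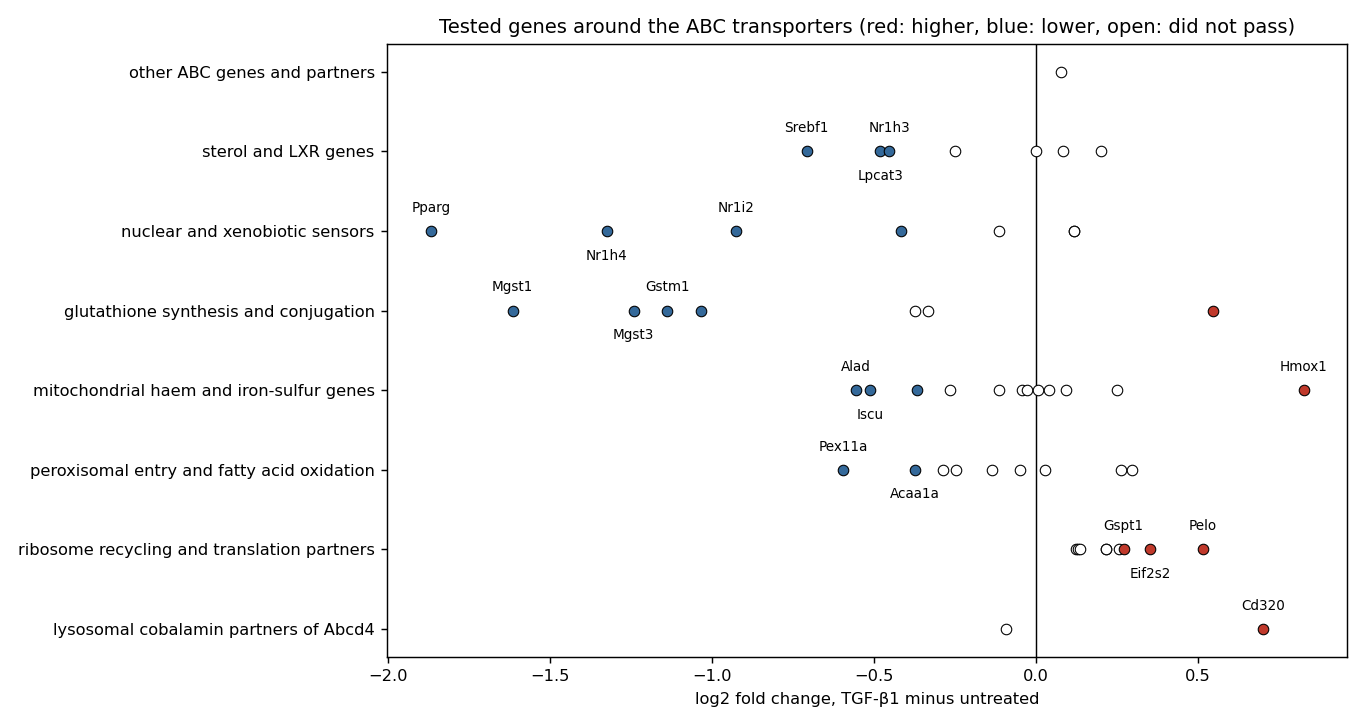
Log2 fold change, TGF-β1 minus untreated (horizontal axis), of each tested gene in the 8 lists around the ABC transporters, with red points higher, blue points lower and open points not passing in limma. Sensors and glutathione genes spread to the left as far as -1.87, and the ribosome and translation partners all lie to the right of 0.

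The GATA factors expressed in stomach were read for the motif between Abcg5 and Abcg8. Gata6 differed by -1.21, at 10.76, 10.59 and 10.93 after TGF-β1 and 12.08, 12.01 and 11.83 in untreated cells, with a limma adjusted p of 1.00e-04. Gata4 was near background, averaging 6.65 after TGF-β1, with 2 arrays detected, and 6.84 in untreated cells. Tested only through the untreated group, it gave -0.19 with a limma adjusted p of 0.209. The part of Gata6 and Gata4 in the values of Abcg5, Abcg8 or Abcf2 was not tested.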

How the data were processed

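Expression of 25697 probes was measured on 6 single-colour arrays. Per the submitters' processing notes the arrays were processed in GenomeStudio. Deposited signals before normalization are intensities whose lowest value, 48.6, shows that background was not taken off. Detection p-values, also deposited, set each probe against negative controls. The normalized intensities deposited by the authors are quantile-normalized on a linear scale and served as an alternative. Own log2 values correlated with them at r of at least 0.999996.

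Here, log2 intensities were quantile-normalized and fitted in limma 3.58.1 (R 4.3.3) with lmFit and eBayes, two-sided, with Benjamini-Hochberg adjustment over all 11189 tested probes and a threshold of 0.05. The methods used SAM, which was not run here. An exact permutation test of 3 against 3 cannot go below 0.1. The number of arrays limits the precision. Probes were named from the platform annotation, in which 23978 had 1 symbol, 0 several and 1719 none, and all 46 member genes were matched in the RefSeq table. Members and lists were chosen with earlier results of these data known. Values on every array are given for members that passed with a fold of at least 1.5 and for Abca1, Abcb1a, Abcb1b, Abcc1, Abcg1 and Abcg2. From each list up to 3 genes that passed with the largest change are named with their difference. Any other gene given array by array was chosen after its values were seen. On simulated data of 11189 probes, the fit found 84 of 100 probes with a 2-fold change and 56 of 100 with a 1.5-fold change. It made 5 false calls. The simulated noise was drawn independently for each probe and array, and no other probe was changed. On the real arrays 32.3% of tested probes passed, so these rates need not hold there. Protein sequences were not used here. Alternatives were other background corrections, normalizations, filters, probe rules, variance models and call rules, array brightness as a covariate, the replicate number as a block, and leaving out each array. A block for the BeadChip was not run, since the columns name none.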

Additional observations from a re-analysis of the deposited data

How the results depend on the processing

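Abca3, Abcb1b, Abcc3, Abcd3, Abcg5, Abcg8 and Abcf2 probe ILMN_2669034 kept their direction and their side of the threshold in every setting that tested them. For Abcg5 and Abcg8 each of these settings set untreated signal against treated signal at or near background. The filter on detection p under 0.01 on all 6 arrays did not test these 2 genes. The member probes that were higher numbered 4, and became 1 with the brightest probe of a gene, 1 with the mean of its probes and 2 with a 1.5-fold minimum. With detection p under 0.01 on all 6 arrays the lower members became 4 of 23 tested, since dim probes leave. With array brightness as a covariate 19 members passed, 13 of them lower, and 35 list genes passed, 14 of them higher. With a 1.5-fold minimum 11 list genes passed, 2 higher and 9 lower. Leaving out each array gave 9 to 13 members passing, 1 to 5 of them higher and 8 lower. Replicate numbers did not pair the samples (correlations of deviations of -0.67, 0.07 and -0.78, and 1 of 3 TGF-β1 arrays closest to its own number). With the replicate number as a block 8 members passed, 1 higher and 7 lower, and 12 list genes passed, 3 higher and 9 lower, out of 2097 probes in all against 3611 without it. Abcc6 (adjusted p of 0.0739) was among the calls lost. Over all probes, the covariate gave 5161 calls and the 1.5-fold minimum 1489. Signs reversed for members that did not pass: Abcb8 ILMN_2864834 at -0.011 when arrays were scaled to an equal mean and -0.15 with the covariate, Abcb8 ILMN_2590908 at -0.035 and Abca7 ILMN_2896639 at -0.0086 with the covariate, and Abca7 at -0.12 and Abcc5 at -0.072 with the mean of probes. Leaving out arrays gave ranges of -0.084 to 0.20 and -0.035 to 0.15 for these Abcb8 probes, -0.0056 to 0.096 for Abca7, -0.14 to 0.30 for Abce1 and -0.054 to 0.63 for Abcf2 ILMN_1242066. The causes were not tested.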
